A study of Mus musculus with 58 samples.

Results

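Lithium was set directly against fluoxetine in the prefrontal cortex of Tbl1xr1 heterozygotes (HT), using all 10 HT lithium libraries and all 10 HT fluoxetine libraries among the 58 of the series. Each arm held 5 female and 5 male libraries, both sexes counted with equal weight, and no vehicle library entered the contrast. All animals were C57BL/6J mice with 1 knock-in copy of Tbl1xr1, taken at postnatal day 25 after 3 weeks of drug (days 3 to 24) received in the milk of their mothers. The mean of the 10 HT vehicle libraries was used afterwards to see which drug had moved each gene. Wild-type (WT) libraries of the same drugs, 8 with lithium and 10 with fluoxetine, served for comparison. The labels do not say that each library is a separate animal and name neither dam nor litter. The p-values therefore measure the spread between libraries, and an effect of a drug and a difference between litters cannot be told apart.

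Lithium is a mood stabiliser that inhibits glycogen synthase kinase 3 (GSK3) and inositol phosphatases, and inhibition of GSK3 spares β-catenin protein from breakdown. Fluoxetine blocks the serotonin transporter and so prolongs serotonin signalling. Neurons answer firing with a quick wave of immediate early genes, whose promoters often carry cAMP response elements (CRE) bound by the transcription factor CREB. TBL1XR1 belongs to the corepressor complexes of NCoR and SMRT, through which nuclear receptors recruit histone deacetylase, and it also takes part in transcription driven by β-catenin.

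Values below are normalised read counts, and differences are lithium minus fluoxetine on the log2(value + 1) scale with standard errors from limma. A gene is said to be called when its Benjamini-Hochberg adjusted p over 16606 genes was under 0.05. Recovered reads per library ran from 23125139 to 34267254 in the lithium arm and from 24901988 to 31783580 in the fluoxetine arm. A few libraries stood apart in genes of neighbouring tissue. The summed choroid plexus list reached 26389 in HT lithium male 1, against at most 469 in the other lithium libraries and 432 in the fluoxetine arm, and the summed striatal list reached 42300 in HT lithium female 2, against at most 22284 and 23233. Olfactory bulb genes were high in both arms, up to 17030 and 12563. In bulk tissue, fewer cells of a type and less RNA per cell cannot be told apart. Tbl1xr1 itself did not separate the drugs. Its normalised count was 2369 at the lowest, 2511 at the median and 2641 at the highest with lithium, and 2276, 2461 and 2692 with fluoxetine, a difference of -0.0057 ± 0.034 (limma adjusted p = 0.96).

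Between the drugs, 324 of 16606 genes were called, which is 1.95%. Of these, 154 (0.927%) were higher with lithium and 170 (1.02%) were lower with lithium. The balance depended on the scaling, with 184 higher and 144 lower under upper-quartile rescaling. Most differences were small. The median size was 0.26 on the log2 scale among the higher genes and 0.16 among the lower ones, and 3 genes differed by 1 or more: Arc, 1700016P03Rik and Lrrc17, of which the latter pair were named after their values were seen. The lower genes had high counts, with a median of 2527 against 517 over all genes tested, at a median transcript length of 3538 against 3281 bases. All 154 and all 170 genes had the same sign in females and in males, which a call on the mean of both sexes favours.

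The vehicle libraries placed these differences unevenly. A gene was put on the lithium side when the step from vehicle to lithium made up at least 66.7% of the gap between the drugs, and on the fluoxetine side when it made up at most 33.3%. Among the 170 genes lower with lithium, 98 (57.6%) lay on the lithium side, 61 between and 11 (6.47%) on the fluoxetine side. Among the 154 genes higher with lithium, 44 (28.6%) lay on the lithium side, 64 between and 46 (29.9%) on the fluoxetine side. Each drug's own comparison with vehicle called fewer genes. Lithium against vehicle called 64 genes (0.385%), including 12 of the 154 and 24 of the 170, while fluoxetine against vehicle called 0 (0%) in limma, with 1526 at an unadjusted p under 0.05, 0 in edgeR and 18 in DESeq2. These comparisons share libraries with the contrast, so the positions describe it and add no separate evidence. The shares are those of the main fit, and their dependence on the scaling is not given here. They were not set beside the same shares over all genes tested.

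**Figure D1:**
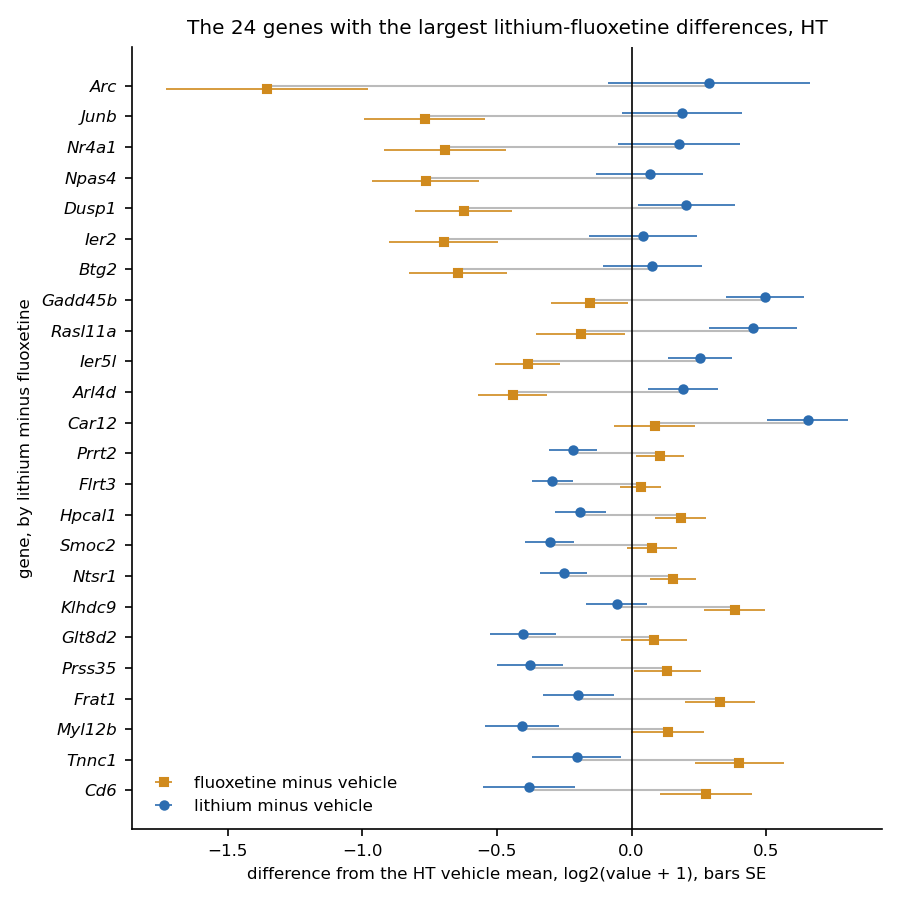
Difference of each drug from the HT vehicle mean on the log2(value + 1) scale (x axis, bars SE) for the 12 named genes with the largest difference upward and the 12 with the largest downward (y axis); squares are fluoxetine and circles lithium. Arc has fluoxetine at -1.35 and lithium at 0.29, whereas Car12 has fluoxetine at 0.09 and lithium at 0.65.

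The clearest group was that of the immediate early genes. Of 22 tested, 8 were called, all higher with lithium, and 19 had a positive difference. The list median was 0.65, against -0.00023 over all genes tested, where 0.927% were called higher. Of the 8, 7 lay nearer to vehicle in the lithium arm than in the fluoxetine arm, and Gadd45b was the exception. Against vehicle, 20 of the 22 were below 0 with fluoxetine, with a median of -0.45. Of them all, 12 had an unadjusted limma p under 0.05, against 1526 of 16606 genes. With lithium 4 were below 0, the median was 0.07 and 2 had an unadjusted p under 0.05, against 2030 of 16606. None of the 22 was called in either drug against vehicle. The list was known from earlier results of these data, so the count is a description.

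Promoter sequences of 4 of these genes are shown because they hold the CRE core motif TGACG, or its reverse complement CGTCA, in capitals, and that of Gadd45b because it does not. Each is the stretch of 250 bases before the RefSeq start on GRCm38.p6, written 5′ to 3′ on the gene's strand.
Dusp1: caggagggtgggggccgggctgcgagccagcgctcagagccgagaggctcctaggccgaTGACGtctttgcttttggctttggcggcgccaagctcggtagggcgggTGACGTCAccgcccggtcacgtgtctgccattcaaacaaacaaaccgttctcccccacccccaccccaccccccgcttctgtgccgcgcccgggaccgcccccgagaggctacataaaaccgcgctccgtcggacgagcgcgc
Btg2: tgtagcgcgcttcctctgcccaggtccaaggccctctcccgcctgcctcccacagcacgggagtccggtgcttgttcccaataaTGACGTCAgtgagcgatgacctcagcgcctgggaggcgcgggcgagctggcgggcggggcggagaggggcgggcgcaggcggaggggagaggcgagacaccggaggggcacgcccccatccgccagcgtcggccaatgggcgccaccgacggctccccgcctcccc
Nr4a1: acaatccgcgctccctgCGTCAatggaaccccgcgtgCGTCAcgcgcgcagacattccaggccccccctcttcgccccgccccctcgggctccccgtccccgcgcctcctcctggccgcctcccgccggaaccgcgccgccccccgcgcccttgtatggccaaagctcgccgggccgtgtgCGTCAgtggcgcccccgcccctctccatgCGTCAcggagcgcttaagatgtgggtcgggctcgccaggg
Npas4: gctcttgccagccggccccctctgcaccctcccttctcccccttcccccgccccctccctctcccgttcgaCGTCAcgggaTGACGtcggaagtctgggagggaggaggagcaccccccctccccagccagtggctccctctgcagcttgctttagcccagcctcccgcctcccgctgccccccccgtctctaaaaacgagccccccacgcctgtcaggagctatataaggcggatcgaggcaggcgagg
Gadd45b: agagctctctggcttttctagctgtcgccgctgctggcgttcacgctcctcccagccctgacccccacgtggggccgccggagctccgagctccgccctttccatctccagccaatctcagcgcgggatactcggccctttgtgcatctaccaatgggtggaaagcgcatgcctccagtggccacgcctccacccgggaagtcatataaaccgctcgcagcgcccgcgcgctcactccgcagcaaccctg
In Dusp1 (chr17:26508473-26508722, minus strand) and Btg2 (chr1:134079156-134079405, minus strand) the motifs of both strands overlap in a palindrome, starting 143 and 166 bases before the start of the gene. Nr4a1 (chr15:101266596-101266845, plus strand) holds the motif 4 times, and Npas4 (chr19:4989972-4990221, minus strand) holds it 2 times. Gadd45b lies at chr10:80929841-80930090 on the plus strand. The motif stood in 5 of the 6 called early genes with a window and in 7 of the 11 uncalled ones. It stood in 29 of 105 genes higher with lithium (27.6%), 36 of 131 lower genes (27.5%) and 3127 of all 12100 tested genes with a window (25.8%). Called genes as a whole thus held it about as often as all genes.

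Arc encodes a cytoskeletal protein of dendrites that drives removal of AMPA receptors from synapses, and it lies on chromosome 15, 74669083 to 74672570, minus strand. Its count ran from 1646 through a median of 5036 to 7038 with lithium, and from 616 through 1390 to 2718 with fluoxetine. The arms overlapped only where the lowest lithium libraries met the highest fluoxetine ones. The difference was 1.64 ± 0.38 (limma adjusted p = 0.013), or 3.12-fold. Vehicle libraries spread over the whole range, from 738 through 4426 to 8756, and the mean difference from vehicle was 0.29 for lithium and -1.35 for fluoxetine, neither of them called.

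Of the transcription factors in the group, Junb, an AP-1 subunit, ran from 671 through 1273 to 1858 with lithium and from 498 through 636 to 801 with fluoxetine (0.96 ± 0.22, limma adjusted p = 0.015). Nr4a1, an orphan nuclear receptor, had 1444, 2323 and 3068 with lithium against 776, 1318 and 1772 (0.87 ± 0.23, adjusted p = 0.028), a call held in 30 of 38 other settings. Npas4, which tunes inhibitory synapses to activity, had 369, 627 and 999.8 against 224, 327 and 835 (0.83 ± 0.20, adjusted p = 0.016). The arms overlapped for all 3, and for Npas4 through 1 high fluoxetine library. All 10 lithium libraries exceeded the fluoxetine mean of their sex for each of them.

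Dusp1, a phosphatase that switches off MAP kinases, had counts of 485 at the lowest, 771 at the median and 1077 at the highest with lithium, and 342, 432 and 532 with fluoxetine (0.83 ± 0.18, limma adjusted p = 0.0095). Btg2, an antiproliferative gene, had 339, 526 and 728 against 247, 295 and 454 (0.72 ± 0.18, adjusted p = 0.024). Ier2 had 156, 212 and 324 against 74.8, 123 and 172 (0.74 ± 0.20, adjusted p = 0.038), a call held in 24 of 38 other settings. The highest fluoxetine library passed the lowest lithium library in each case, although the medians were far apart. Vehicle medians were 745 for Dusp1, 467 for Btg2 and 229 for Ier2, all closer to lithium.

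Gadd45b, which takes part in activity-dependent DNA demethylation, behaved differently with respect to vehicle. It had 265, 402 and 492 with lithium, 177, 253 and 374 with fluoxetine, and 179, 300 and 400 with vehicle. Here lithium stood 0.49 above vehicle and fluoxetine 0.16 below it on the log2 scale, neither called, and the drugs differed by 0.65 ± 0.14 (limma adjusted p = 0.010). Its difference in WT was 0.51 ± 0.15 and was also called (adjusted p = 0.043).

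Other members did not pass. Fos differed by 1.06 ± 0.34 (limma adjusted p = 0.093), Egr2 by 1.15 ± 0.44 (adjusted p = 0.17), Fosb by 0.69 ± 0.31 (adjusted p = 0.27) and Egr1 by 0.55 ± 0.21 (adjusted p = 0.18). Jun, Klf4 and Ptgs2 were the 3 with a negative difference, between -0.15 and -0.03. Summed over the list, the normalised count ran from 24777 through 38576 to 45230 with lithium, 17263 through 26318 to 38204 with fluoxetine, and 21426 through 33759 to 52975 with vehicle. Without HT lithium male 1 and HT lithium female 2 together, 2 of the 8 remained called, with differences of at least 0.63 and adjusted p from 0.029 to 0.14. With a choroid plexus covariate, 5 of the 8 remained called.

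**Figure D2:**
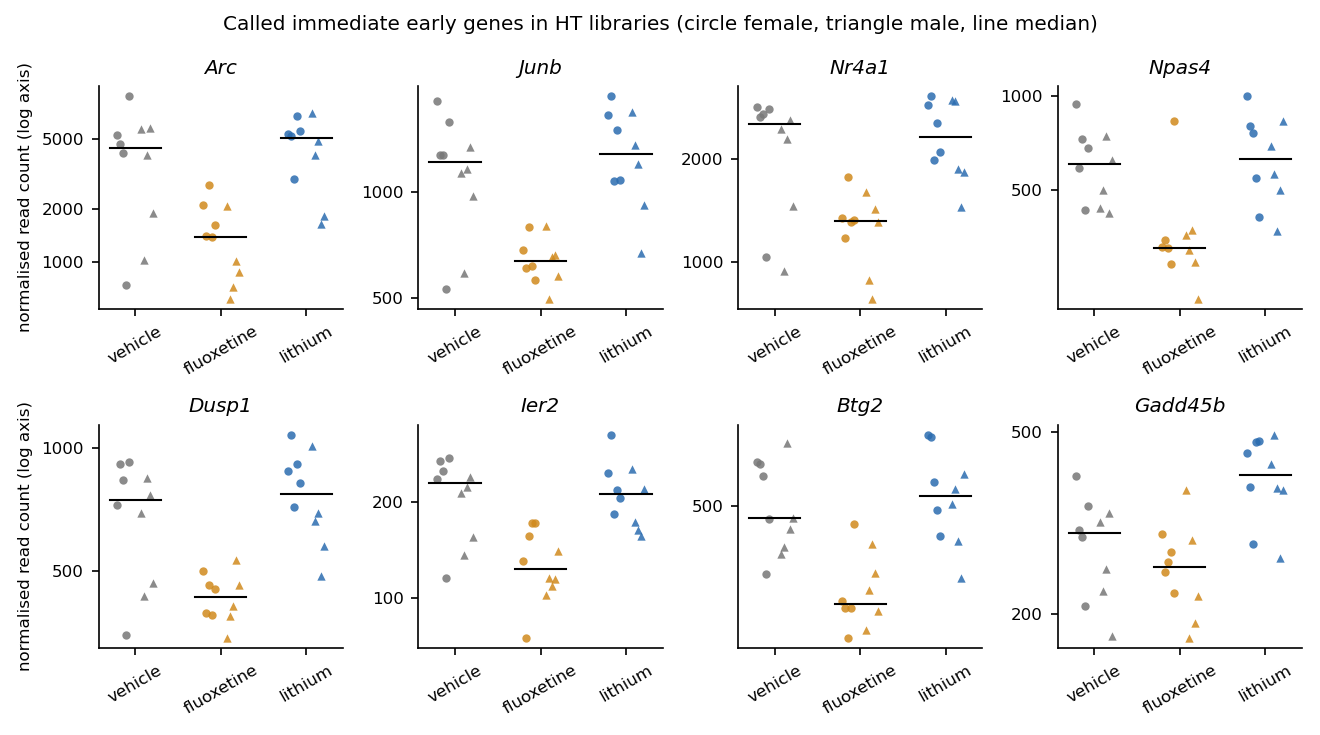
Normalised read count (y axis, log scale) of the 8 called immediate early genes in each HT library by treatment (x axis); circles are female, triangles male, and lines the median of 10 libraries. For Arc the fluoxetine median is 1390 against 5036 with lithium and 4426 with vehicle, and single vehicle libraries sit as low as the fluoxetine ones.

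Wnt signalling, which lithium is known to engage through GSK3, gave 1 call among 25 genes tested, against 1.95% of all genes, and that gene was lower with lithium. It was Ctnnb1, the gene of β-catenin itself (ENSMUSG00000006932, chromosome 9, 120929216 to 120960507, plus strand). Ctnnb1 had counts of 14231 at the lowest, 15418 at the median and 16787 at the highest with lithium, and 16634, 18526 and 19116 with fluoxetine. Only 1 low fluoxetine library reached into the lithium range. The difference was -0.24 ± 0.037, or 0.846-fold (limma adjusted p = 0.00021), and it stayed called under every setting run. With vehicle the counts were 16568, 18205 and 21544, so vehicle lay with fluoxetine. Against vehicle, lithium stood at -0.26 (adjusted p = 6.4e-05) and fluoxetine at -0.02. In WT the drugs differed by the same -0.24 ± 0.039 (adjusted p = 0.00043).

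The Wnt list as a whole, Ctnnb1 included, was split, with 14 of 25 genes above 0 and a median of 0.01. Its 1 call, lower with lithium, stands against 1.02% of all genes called lower. Axin2, a feedback target of β-catenin, differed by 0.12 ± 0.050 (limma adjusted p = 0.22) and Gsk3b by -0.07 ± 0.047 (adjusted p = 0.54). Frat1, whose protein binds GSK3 and keeps it from β-catenin, was outside the list. It was among the 12 largest downward differences between the drugs at a mean count of at least 50. It had counts of 99.2, 153 and 258 with lithium and 194, 221 and 300 with fluoxetine, with overlap through the highest lithium libraries. Its difference was -0.53 ± 0.13 (adjusted p = 0.023), and in WT it was -0.59 ± 0.14 (adjusted p = 0.013). With vehicle the median was 183, between the arms, and the Frat1 call held in 31 of 38 other settings. Cdh2, which encodes N-cadherin, and Ctnna2, which encodes αN-catenin, are partners of β-catenin at cell junctions and were picked after their values were seen. Both were lower with lithium, by -0.15 ± 0.040 (adjusted p = 0.029) and -0.16 ± 0.043 (adjusted p = 0.036), and held the call in 28 and 20 of 38 other settings. In WT neither was called, at 0.015 ± 0.042 for Cdh2 and -0.08 ± 0.045 for Ctnna2.

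Inositol metabolism, the other textbook site of lithium action, had 0 of 21 genes called, with 7 above 0, a median of -0.03 and 1 gene at an unadjusted p under 0.05. Impa1, the inositol monophosphatase that lithium inhibits, ran from 1881 through 2010 to 2115 with lithium and from 1880 through 1976 to 2140 with fluoxetine. The difference of Impa1 was 0.01 ± 0.027. Itpk1, an inositol phosphate kinase noticed after its value was seen, was lower by -0.17 ± 0.047 (limma adjusted p = 0.043) and held its call in 21 of 38 other settings. Serotonin receptors, transport and breakdown, the target system of fluoxetine, also had 0 of 15 called, with 1 at an unadjusted p under 0.05. The receptor genes Htr1a and Htr2a had the smallest p, at -0.32 ± 0.12 (adjusted p = 0.14) and -0.20 ± 0.098 (adjusted p = 0.33).

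Genes of the integrated stress response included Atf4, its central transcription factor, and Sesn2, an ATF4 target that restrains mTORC1. They were the 2 called of 20, both higher with lithium, against 0.927% of all genes, while the list median was 0.03 and 12 of 20 were above 0. Atf4 had counts of 3301, 3683 and 3955 with lithium against 2823, 3252 and 3472 with fluoxetine, overlapping at the edges. The difference was 0.19 ± 0.037 (limma adjusted p = 0.0036). Vehicle sat with fluoxetine, at 2992, 3272 and 3437, and lithium was called against it at 0.18 (adjusted p = 0.017). WT gave 0.18 ± 0.039 (adjusted p = 0.0085).

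Sesn2 had 366, 460 and 513 with lithium, 321, 371 and 421 with fluoxetine and 325, 380 and 425 with vehicle. The drugs differed by 0.30 ± 0.063 (limma adjusted p = 0.0067), and lithium was 0.26 above vehicle (adjusted p = 0.035). In WT the difference of 0.09 ± 0.067 was not called (adjusted p = 0.47), and the genotypes were not shown to differ (adjusted p of the genotype difference 0.32). Ddit4, another stress gene that restrains mTORC1 and the 1 called of 17 in the glucocorticoid list (1.95% of all genes were called), had 1157, 1441 and 1997 against 877, 1096 and 1488 (0.38 ± 0.099, adjusted p = 0.028). The lithium and fluoxetine libraries overlapped for Ddit4, and its call held in 30 of 38 other settings. The unfolded protein response list, made up of chaperones and folding enzymes of the endoplasmic reticulum, had 0 of 17 called in HT, where the sexes lay on opposite sides of 0. In females 16 of 17 were below 0 with a median of -0.12, and in males 17 of 17 were above 0 with a median of 0.12. In each sex 6 genes had an unadjusted p under 0.05, against 1505 of 16606 genes in females and 1806 in males. Against vehicle, 15 of 17 were below 0 with lithium (median -0.08) and 15 of 17 with fluoxetine (median -0.12). The summed list ran from 54946 through 57198 to 65169 with lithium. With fluoxetine it ran from 51702 through 55348 to 71086, the highest in HT fluoxetine female 4. No gene of the list was called in either sex or in the test of the sex difference. In WT 17 of 17 were above 0 with a median of 0.19, and 10 were called higher, against 2.62% of all genes. Hspa5, the chaperone BiP, stood at -0.20 in HT females, 0.28 in HT males and 0.37 in WT (adjusted p = 0.019).

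**Figure D3:**
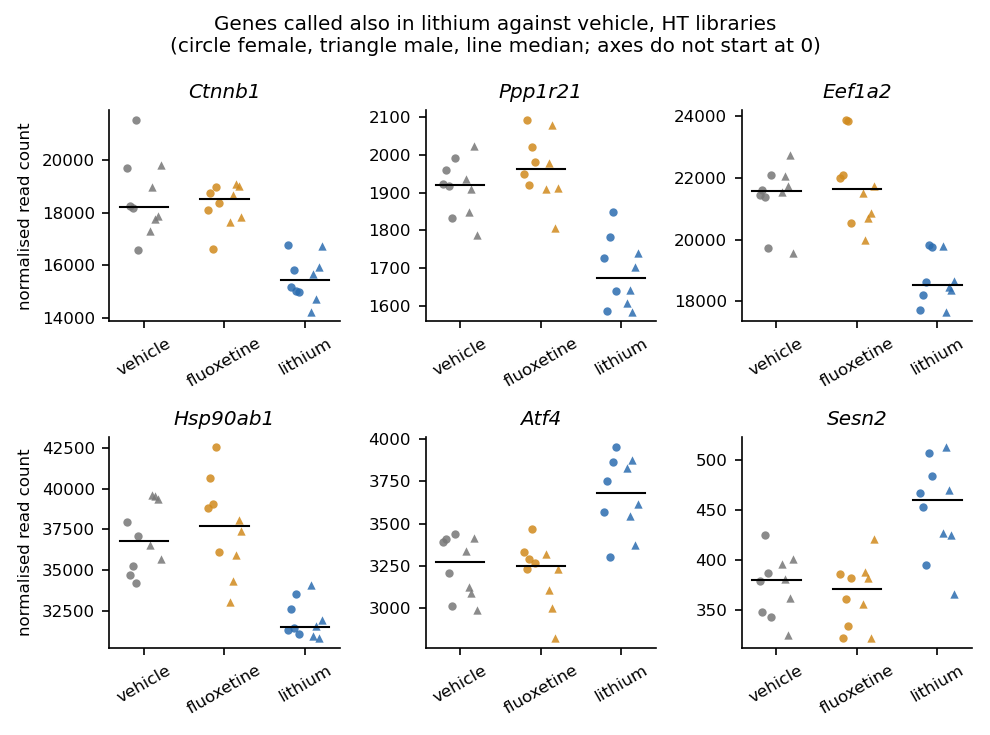
Normalised read count (y axis, linear, not starting at 0) of 6 genes also called in lithium against vehicle, in each HT library by treatment (x axis); circles are female, triangles male, lines the median of 10. Fluoxetine and vehicle medians lie close together, for example 18526 and 18205 for Ctnnb1, with lithium at 15418.

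The smallest p of all genes belonged to Ppp1r21, which encodes a protein of early endosomes and was lower with lithium. Its counts were 1585, 1673 and 1848 with lithium, 1807, 1964 and 2092 with fluoxetine and 1787, 1919 and 2024 with vehicle. The arms met only at their edges, and the difference was -0.22 ± 0.029 (limma adjusted p = 1.7e-05), also called in WT at -0.12 ± 0.031 (adjusted p = 0.017). It was picked after its value was seen, as were the genes of translation and protein turnover that follow.

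Eef1a2, the neuronal form of translation elongation factor 1A, had 17661, 18539 and 19832 with lithium against 19991, 21636 and 23889 with fluoxetine. All 10 lithium libraries lay below all 10 fluoxetine libraries, as for 12 of the 16606 genes (0.0723%), and for 3 genes (0.0181%) all lithium libraries lay above. The difference of Eef1a2 was -0.21 ± 0.036 (limma adjusted p = 0.0009), and against vehicle lithium was lower by the similar -0.19 (adjusted p = 0.0057). Elongation factor Eef2 was lower by -0.13 ± 0.028 (adjusted p = 0.0067). The list of cytosolic ribosomal proteins had 0 of 81 genes called, with 35 above 0, 46 below 0 and a median of -0.013. Ufd1, a cofactor of the segregase VCP in protein turnover, did not overlap either, with 1518, 1594 and 1665 against 1685, 1778 and 1859 (-0.16 ± 0.025, adjusted p = 0.00035). Vcp itself was at -0.12 ± 0.033 (adjusted p = 0.033) and its cofactor Nsfl1c at -0.14 ± 0.041 (adjusted p = 0.049), called in 27 and 13 of 38 other settings. In WT the difference was called for Eef2, at -0.097 ± 0.030 (limma adjusted p = 0.046). It was not called for Eef1a2 (-0.05 ± 0.038), Ufd1 (-0.07 ± 0.026), Vcp (0.003 ± 0.035) or Nsfl1c (-0.05 ± 0.043). The genotype difference was called for none of these genes.

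Heat shock chaperones gave 2 calls of 14, both lower with lithium, against 1.02% of all genes, with a list median of -0.05. Hsp90ab1, the constitutive cytosolic HSP90, had 30795, 31480 and 34097 with lithium against 33037, 37730 and 42572 with fluoxetine. Vehicle stood at 34184, 36803 and 39626, and no vehicle library reached down into the lithium range. The difference between the drugs was -0.23 ± 0.039 (limma adjusted p = 0.0009). Hspa8, the constitutive HSC70, had 45251, 48261 and 53802 against 49292, 52952 and 63069 (-0.18 ± 0.047, adjusted p = 0.035), with the arms overlapping and the call held in 25 of 38 other settings. Neither was called in WT, where the differences were -0.02 ± 0.041 and 0.10 ± 0.050. The genotype difference was not called for either (adjusted p = 0.14 for both).

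Presynaptic genes had 2 of 20 called, both lower with lithium, against 1.02% of all genes, and 16 of 20 below 0, with a median of -0.09. Vamp2, the vesicle SNARE of neurotransmitter release, had 27193, 29221 and 30693 with lithium against 29479, 31372 and 34176 with fluoxetine, with partial overlap. The difference was -0.11 ± 0.031 (limma adjusted p = 0.035). Rab3a, a GTPase of synaptic vesicles, had 13119, 13892 and 15009 against 14329, 14931 and 17725 (-0.13 ± 0.037, adjusted p = 0.043). Both calls were lost under upper-quartile rescaling, at adjusted p of 0.072 and 0.060, and held in 20 and 17 of 38 other settings. Among genes chosen after their values were seen, the endocytic genes Dnm1 (dynamin 1, -0.16 ± 0.039), Ap2a2 (-0.19 ± 0.034) and Ap2m1 (-0.15 ± 0.039), of which the latter pair encode subunits of the clathrin adaptor AP-2, were also called lower, at adjusted p of 0.022, 0.0017 and 0.030. The Ap2m1 call held in 29 of 38 other settings. In WT the difference was called for Ap2a2, at -0.16 ± 0.036 (limma adjusted p = 0.0081), but not for Dnm1 (-0.02 ± 0.042) or Ap2m1 (-0.04 ± 0.041). Postsynaptic genes had 0 of 20 called, 16 below 0, and 4 at an unadjusted p under 0.05.

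Glycolysis had no list of its own. Pfkl, Pfkm and Pkm, which encode phosphofructokinase and pyruvate kinase and were picked after seeing their values, were lower with lithium by -0.22 ± 0.050, -0.13 ± 0.035 and -0.15 ± 0.041 (limma adjusted p = 0.014, 0.038 and 0.042). Pfkl held its call in 38 of 38 other settings, Pfkm in 21 and Pkm in 18. Against vehicle, in the same order, lithium stood at -0.13, -0.07 and -0.05 and fluoxetine at 0.09, 0.06 and 0.10, none called. In WT the differences were -0.09 ± 0.053, -0.05 ± 0.038 and 6.2e-05 ± 0.043, also uncalled. The genotype difference was not called for any of them. The protein phosphatase 2A subunits Ppp2r1a and Ppp2r5d, likewise picked afterwards, were lower by -0.19 ± 0.045 (adjusted p = 0.015) and -0.16 ± 0.029 (adjusted p = 0.0017). In WT the difference was called for both phosphatase genes, at -0.18 ± 0.047 and -0.12 ± 0.031 (adjusted p = 0.024 and 0.018).

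Deep-layer neurons had 1 of 13 genes called, against 1.95% of all genes, so that a single gene carries the count. Ntsr1, the neurotensin receptor that marks corticothalamic neurons of layer 6, had 150, 196 and 242 with lithium, 206, 248 and 344 with fluoxetine and 196, 226 and 267 with vehicle. The drug arms overlapped over a narrow range, and the difference was -0.41 ± 0.086 (limma adjusted p = 0.0074). Of the 13, 9 were below 0 and the median was -0.12. Upper-layer neurons had 0 of 12 called, interneurons 0 of 16, astrocytes 0 of 14, microglia 0 of 14 and mature oligodendrocytes 0 of 14.

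The next genes were among the 12 with the largest downward difference, lithium minus fluoxetine, at a mean count of at least 50, with predicted genes passed over. Cd6, a lymphocyte surface receptor, had 72.4, 92.8 and 151 with lithium against 115, 166 and 187 with fluoxetine (-0.66 ± 0.17, limma adjusted p = 0.028). Tnnc1, the slow troponin C, had 476, 756 and 1042 against 864, 1061 and 1329 (-0.60 ± 0.17, adjusted p = 0.040). The arms of both genes overlapped, and the vehicle medians of 133 and 813 fell between the drug medians. Prss35 (-0.51 ± 0.12), Glt8d2 (-0.49 ± 0.12), Klhdc9 (-0.44 ± 0.11), Smoc2 (-0.38 ± 0.093), Hpcal1 (-0.37 ± 0.095), Flrt3 (-0.33 ± 0.077) and Prrt2 (-0.32 ± 0.089) followed, at adjusted p between 0.015 and 0.041. Against vehicle, Klhdc9 stood at -0.05 with lithium and 0.38 with fluoxetine, and Flrt3 at -0.29 and 0.03, none of them called. The calls of Cd6, Tnnc1 and Prrt2 held in 29, 25 and 22 of 38 other settings. Those of Glt8d2 and Hpcal1 each held in 30. Hpcal1 encodes a neuronal calcium sensor, Flrt3 an adhesion partner of latrophilins, and Prrt2 a presynaptic protein linked to paroxysmal dyskinesia. Myl12b was lower by -0.54 ± 0.14 (adjusted p = 0.024), but the annotation gives this symbol to 2 gene IDs, so reads may have been split between copies and the value is uncertain.

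Among named genes with a mean count of at least 50, the largest upward differences between the drugs beyond the early genes were those of Rasl11a, Ier5l, Arl4d and Car12. Rasl11a, a Ras-like GTPase, had 71.7, 135 and 167 with lithium against 53.3, 76.4 and 124 with fluoxetine (0.64 ± 0.16, limma adjusted p = 0.025). Ier5l, a relative of the early response gene Ier5, had 245, 358 and 418 against 152, 212 and 293 (0.64 ± 0.12, adjusted p = 0.0027). Arl4d, an ARF-like GTPase, had 390, 577 and 747 against 281, 343 and 499 (0.63 ± 0.13, adjusted p = 0.0067). The arms of all 3 overlapped, with vehicle medians of 89.7, 277 and 545. Ier5l was called in WT too, at 0.42 ± 0.13 (adjusted p = 0.047).

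Car12, a membrane carbonic anhydrase, had 264, 330 and 610 with lithium, 162, 238 and 362 with fluoxetine and 172, 216 and 394 with vehicle. Its highest lithium value came from HT lithium male 1, the library rich in choroid plexus genes. The difference was 0.57 ± 0.15 (limma adjusted p = 0.030), and Car12 was among the 12 higher genes also called against vehicle. With a choroid plexus covariate its adjusted p was 0.10, and without HT lithium male 1 and HT lithium female 2 it was 0.16. The part of choroid plexus RNA in this difference was not tested otherwise.

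Several signalling genes higher with lithium were picked after their values were seen. Socs3, a feedback inhibitor of cytokine receptors, had 88.8, 110 and 127 with lithium against 49.1, 71.6 and 103 with fluoxetine, with overlap through the upper fluoxetine libraries. It differed by 0.57 ± 0.10 (limma adjusted p = 0.0017), with a vehicle median of 93.4 between the drugs. The Hedgehog receptor and target gene Ptch1 had 1347, 1827 and 2146 against 1107, 1359 and 1592 (0.40 ± 0.087, adjusted p = 0.0083), and it was called in WT at 0.33 ± 0.092 (adjusted p = 0.027). Gli1, the transcription factor and target of the same pathway, had 38.0, 53.4 and 78.3 against 25.3, 41.6 and 49.7 (0.47 ± 0.13, adjusted p = 0.047). Gli1 held its call in 16 of 37 other settings, and in WT it stood at -0.10 ± 0.14, uncalled. Zfp275, a zinc finger gene called in both genotypes, was 0.30 ± 0.053 higher in HT (adjusted p = 0.0015) and 0.26 ± 0.056 in WT (adjusted p = 0.0084).

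Cholesterol synthesis and SREBP2 target genes were mostly above 0. Of 24, 21 were above 0 with a median of 0.10, and 11 had an unadjusted p under 0.05, against 2543 of 16606 genes tested. In the list 1 gene was called, against 1.95% of all genes. That gene, Stard4, a cytosolic sterol carrier, had 845, 947 and 1091 with lithium against 775, 855 and 900 with fluoxetine, overlapping at the edge (0.19 ± 0.052, limma adjusted p = 0.040). The vehicle median was 927. The Stard4 call held in 23 of 38 other settings. Against vehicle, 22 of the 24 genes were below 0 with fluoxetine and 10 with lithium, none called. In the nuclear oxidative phosphorylation list Ndufb2, a complex I subunit, was the 1 call of 74, with 1073, 1128 and 1318 against 735, 897 and 1179 (0.32 ± 0.068, adjusted p = 0.0067). Among 57 clustered protocadherins, adhesion proteins that give neurons an identity, Pcdhga8 was the 1 call, with 345, 430 and 544 against 245, 338 and 439 (0.34 ± 0.077, adjusted p = 0.014). The arms of Ndufb2 and of Pcdhga8 overlapped, and 1 call of 74 or of 57 is no more than the 1.95% of all genes called. Pcdhga8 shares exons with its cluster, so reads could be split between members.

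**Figure D4:**
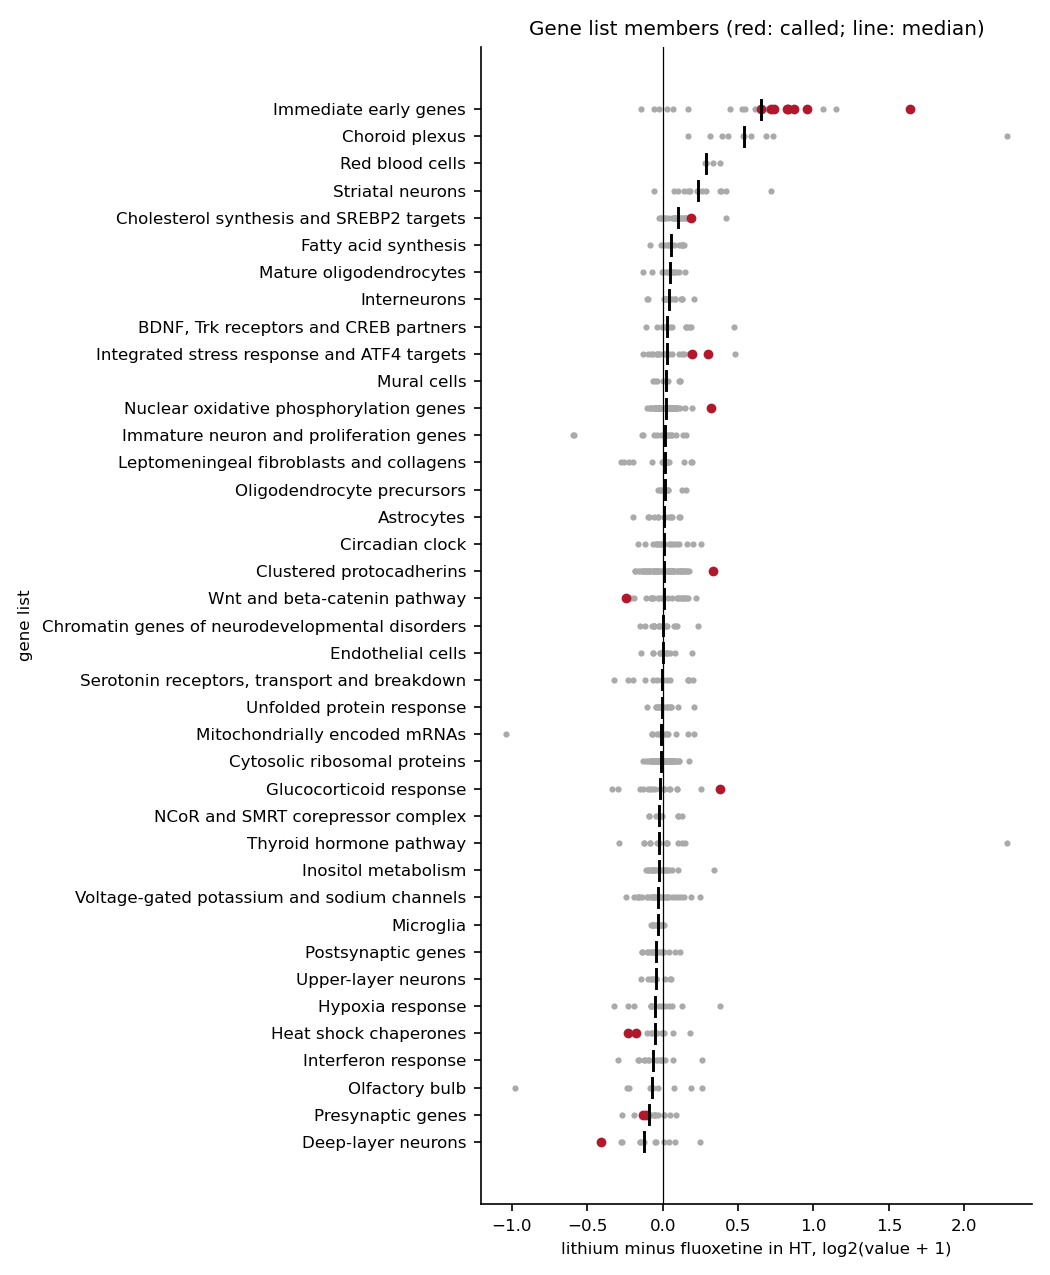
Difference between lithium and fluoxetine in HT on the log2(value + 1) scale (x axis) for each member of 39 gene lists (y axis, ordered by median); red points are called and black lines are list medians. Immediate early genes stand at a median of 0.65 with 8 called, and the choroid plexus list at 0.54 with 0 called.

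Lists of neighbouring tissue had no call. Choroid plexus genes had 10 of 10 above 0 and a median of 0.54, striatal genes 14 of 15 and 0.23, and red blood cell genes 5 of 5 and 0.29. Olfactory bulb genes had 3 of 10 above 0 and a median of -0.07. The sexes differed in sign for some lists, with no gene called for a sex difference. Red blood cell genes had 5 of 5 above 0 in females (median 0.84, all 5 at an unadjusted p under 0.05) and 0 of 5 in males (median -0.20). Olfactory bulb genes had 0 of 10 above 0 in females and 9 of 10 in males, and mature oligodendrocyte genes 2 of 14 and 14 of 14. No defining marker of these lists was at 0 in all libraries of an arm. The summed choroid plexus list had a median of 364 with lithium and 269 with fluoxetine, and the summed striatal list 15438 and 14936. Their part in the genes called between the drugs was tested only through covariates and the removal of libraries. A choroid plexus covariate left 134 calls, a striatal covariate 330, an olfactory bulb covariate 630, and removal of HT lithium male 1 and HT lithium female 2 left 146. Leaving out HT lithium male 3 left 210.

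Within a single sex the contrast had 5 libraries an arm and few calls. Females gave 6 (0.0361%), 2 of them higher with lithium (0.012%) and 4 lower (0.0241%). Males gave 20 (0.12%), 12 higher (0.0723%) and 8 lower (0.0482%). Ppp1r21 was called in both, at -0.22 ± 0.042 in females and -0.23 ± 0.042 in males (limma adjusted p = 0.032 and 0.029). The female calls, listed after their values were seen, also held Hsp90ab1 (-0.30), Eef1a2 (-0.25), Pqbp1 (-0.31) and Socs3 (0.72), and the male calls held Ctnnb1 (-0.26), Ufd1 (-0.16), Ier5l (0.77) and Atf4 (0.24). A direct test of the difference between the sexes called 0 genes in limma, with 656 at an unadjusted p under 0.05, 0 in edgeR and 3 in DESeq2. The female and male differences correlated over 16606 genes at r = 0.18, a description only, as genes are not independent replicates.

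Set beside WT, where lithium against fluoxetine called 802 genes (4.83%), 50 genes were called in the same direction in both genotypes. The WT calls were 435 higher with lithium (2.62%) and 367 lower (2.21%). Under upper-quartile rescaling the WT balance turned, to 311 higher and 455 lower, and with a leptomeningeal covariate it was 224 and 284. The 50 shared genes were 15.4% of the HT calls and 6.23% of the WT calls, and 1 further gene was called in opposite directions. Of the 154 genes higher with lithium in HT, 129 had a positive difference in WT, and of the 170 lower genes 142 had a negative one. Over all 16606 genes, 8254 were above 0 and 8352 below 0 in WT. The HT and WT differences share no library, but their p-values rest on a common estimate of the spread from all 58 libraries. With only the groups of each contrast, HT gave 193 calls and WT 100. The WT lithium groups held 4 libraries per sex. Over all 16606 genes the differences in HT and WT correlated at r = 0.15, given as a description. Ctnnb1, Ppp1r21, Atf4, Frat1, Ier5l, Ptch1 and Gadd45b were among the 50. Of the 22 immediate early genes, 20 were above 0 in WT with a median of 0.31, and 3 were called higher, against 2.62% of all genes. These 3, named after their values were seen, were Gadd45b, the scaffold gene Homer1 (0.66 ± 0.16, limma adjusted p = 0.014) and the orphan receptor gene Nr4a3 (0.93 ± 0.28, adjusted p = 0.040). In HT, Homer1 stood at 0.17 ± 0.15 and Nr4a3 at 0.45 ± 0.26, both uncalled. Members called in HT ranged in WT down to 0.07 ± 0.21 for Npas4 and 0.01 ± 0.19 for Btg2. The genotype difference was called for none of these 4 (adjusted p = 0.33 for Homer1, 0.62 for Nr4a3 and 0.26 for the other two).

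The direct test of the genotype difference called 1 gene (0.00602%) in limma, with 2161 at an unadjusted p under 0.05, 1 in edgeR and 36 in DESeq2. It was Gm15663, a predicted gene named because it was the single call. In HT its counts were 136, 164 and 179 with lithium against 163, 208 and 226 with fluoxetine, overlapping at the edge (-0.31 ± 0.067, limma adjusted p = 0.0095). In WT they were 170, 188 and 224 with lithium against 135, 158 and 200 with fluoxetine (0.25 ± 0.072, adjusted p = 0.035). The genotype difference was -0.55 ± 0.098 (adjusted p = 0.013). The count of such genes depended on single libraries, with 130 called without WT fluoxetine male 1 and 0 without WT lithium male 3.

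**Figure D5:**
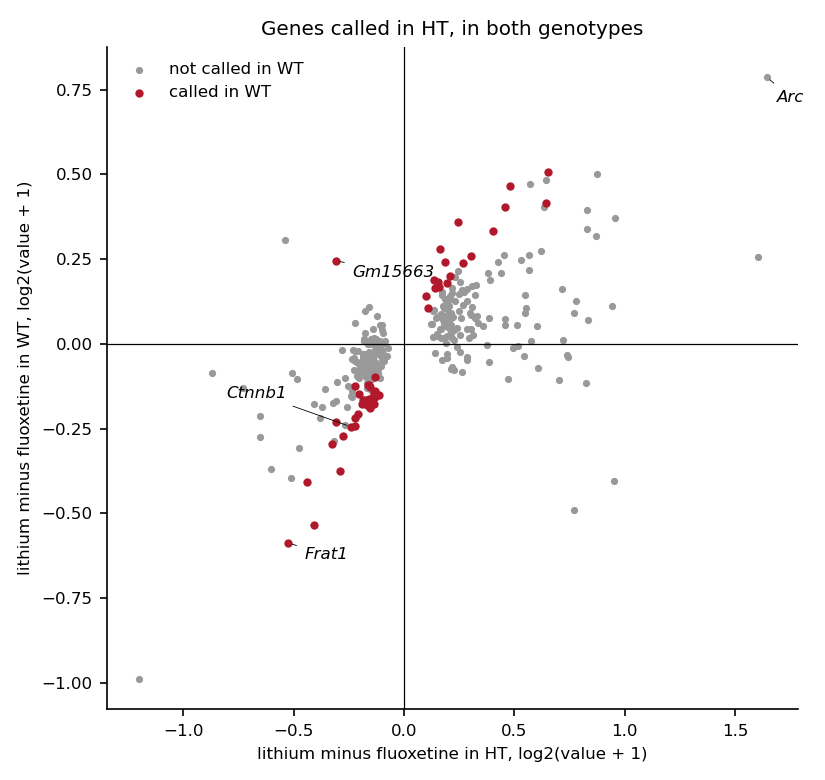
Difference between lithium and fluoxetine in WT (y axis) against HT (x axis) on the log2(value + 1) scale for the 324 genes called in HT; red points are also called in WT. The points were chosen on the x axis, so their spread away from 0 in HT is by selection; Ctnnb1 has -0.24 on both axes and Gm15663 lies at -0.31 and 0.25.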

How the data were processed

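Polyadenylated RNA of prefrontal cortex had been sequenced with the TruSeq Stranded mRNA kit, per the labels' protocols. The deposited table holds a linear signal per gene and library: read numbers scaled by 1 size factor for each library, as the steps between its values show. Salmon 0.11.2, R 3.6.0, DESeq2 1.19.11 and GRCm38 are named in the submitters' processing notes, and the handling of reads shared by several genes was not found there. The steps gave whole reads for 100% of values at a tolerance of 0.0001, from 22901678 to 35008274 reads per library, with size factors of 0.787 to 1.23. Names and positions came from GENCODE M21 (18077 of 18088 genes matched).

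Groups and replicate numbers came from the titles. One limma 3.58.1 model (R 4.3.3, mean-variance trend) with 12 group means was fitted to log2(value + 1) of all 58 libraries. It tested 16606 genes, those averaging 10 or more, with 46 residual degrees of freedom and Benjamini-Hochberg adjustment over all of them. Fold changes on this scale understate the change of low genes. The fit was tested on simulated data.

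The members, lists and tests were chosen with earlier results of these data known. Named genes were Tbl1xr1, the 12 called genes with the largest difference in each direction at a mean of at least 50, from each list the 3 called genes of smallest p (or otherwise 2 uncalled ones), and the 3 genes with the smallest p of the sex and genotype differences. Predicted genes were passed over, and some genes that the rule takes are not described. Other genes are said to have been picked after their values were seen. Promoter windows came from RefSeq on GRCm38.p6, with 12100 of 16589 symbols matched and none for Arc and Ier2.

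Alternatives were other pseudocounts (0.5 and 5), other low-count filters (a mean of 50, or none), upper-quartile rescaling, median centring, array weights, only the groups of each contrast, the replicate number as a block, covariates for striatal, choroid plexus, leptomeningeal, olfactory bulb and oligodendrocyte genes, and each library left out. On the recovered reads, edgeR 4.0.16 tested 17757 genes and DESeq2 1.42.0 tested 18088. Removal of 2 libraries together and of GC and length trends were chosen after seeing the data. Within the HT lithium and HT fluoxetine groups, no 2 libraries of a group were copies of each other: over 40 pairs, the chi-square per gene was 6.91 to 31.1. Libraries of the other groups were not compared in this way.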

Additional observations from a re-analysis of the deposited data

Results flagged for a closer look

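For 43 genes and the tissue lists, the highest or lowest library of each HT group was compared with its group. Of 282 such tests 26 stood apart by Dixon's criterion (9.22%). Its nominal chance rate is about 1 in 20 groups, and the rate for these data was not measured. No explanation was tested.

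Among the early genes, Arc reached 2076.5 in HT fluoxetine male 1, against at most 1011 in the others of its group. Nr4a1 reached 1772.5 in HT fluoxetine female 3 (next 1347) and was at 1034 in HT vehicle female 4 (next 2659). Npas4 reached 835 in HT fluoxetine female 5 (next 346.5), Btg2 453.7 in the same library (next 300.5) and 698 in HT vehicle male 3 (next 467.6). Ier2 was lowest, at 115.4, in HT vehicle female 4 (next 235).

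Of the other genes higher with lithium, Rasl11a reached 124 in HT fluoxetine female 1 (next 83.95), Arl4d 478 in HT fluoxetine male 1 (next 327), Ddit4 1488.5 in that library (next 1031), and Car12 610 in HT lithium male 1 (next 368.6). Stard4 was lowest, at 711, in HT vehicle female 4 (next 908), and Socs3, at 49.1, in HT fluoxetine female 3 (next 67.0).

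Of the genes lower with lithium, Klhdc9 reached 117 in HT fluoxetine female 5 (next 86.5) and Vamp2 34942 in HT vehicle female 2. Ntsr1 was lowest, at 208, in HT fluoxetine female 1 (next 241), Smoc2, at 274, in HT lithium female 4 (next 347), and Prrt2, at 4223, in HT vehicle male 5 (next 5873). Gm15663 reached 242 in HT vehicle male 3 (next 200.3).

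Of the summed lists, choroid plexus reached 26389 in HT lithium male 1 (next 469) and 421 in HT vehicle male 5 (next 289). Striatal genes reached 42300 in HT lithium female 2 and 31698 in HT vehicle female 5. Olfactory bulb genes reached 12563 in HT fluoxetine male 2 (next 2386) and 12014 in HT vehicle male 5 (next 1325). Red blood cell genes reached 16213 in HT fluoxetine male 2.

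The difference between lithium and fluoxetine differed between the genotypes for Gm15663, by -0.55 (HT minus WT, limma adjusted p = 0.013), with HT at -0.31 and WT at 0.25.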

How the results depend on the processing

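The 324 calls between the drugs in HT numbered 311 to 356 under other pseudocounts, minimum means and scalings, 330 with a striatal covariate, 454 with a leptomeningeal one, 388 with an oligodendrocyte one, 336 without GC and length trends, 482 with array weights, 293 in edgeR and 449 in DESeq2. They moved further with only the 4 groups of the contrast (193), a choroid plexus covariate (134), an olfactory bulb covariate (630) and removal of HT lithium male 1 and HT lithium female 2 together (146), and the cause was not tested. Of 73 named genes called, 33 stayed called under every setting run and 42 with each library left out. The replicate block gave 292 calls. Same-numbered HT lithium and fluoxetine libraries correlated between -0.27 and 0.49, 4 of 10 pairs over 0.1. Of the lithium libraries, 4 of 10 correlated best with their own number. The labels name no pairing, and so few pairs cannot decide whether there was one.

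The 6 female calls became 10 under upper-quartile rescaling, 2 with only the groups compared, 12, 80 and 14 with leptomeningeal, olfactory bulb and oligodendrocyte covariates, 1 without GC and length trends and 69 in DESeq2. The 20 male calls became 101 with array weights, 0 with only the groups compared, 12 with the replicate block, 11, 0, 40 and 32 with striatal, choroid plexus, leptomeningeal and olfactory bulb covariates, 10 without GC and length trends, 0 without HT lithium male 1 and HT lithium female 2, and 39 in DESeq2. For the sex difference DESeq2 gave 3. The 802 WT calls became 1925 with array weights, 100 with only the groups compared, 498 with the replicate block, 508 and 1248 with leptomeningeal and olfactory bulb covariates, and 517 without GC and length trends. The 1 genotype call became 40 with array weights, 0 with only the groups compared, 4 with the olfactory bulb covariate and 36 in DESeq2. The 64 calls of lithium against vehicle became 109 with array weights, 16 with only the groups compared, 30 and 170 with choroid plexus and olfactory bulb covariates, 22 without the 2 libraries together and 183 in DESeq2. The 0 calls of fluoxetine against vehicle became 3 with array weights, 3 and 4 with leptomeningeal and olfactory bulb covariates, 3 without GC and length trends and 18 in DESeq2.

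With 1 library left out, the HT contrast gave 210 (without HT lithium male 3) to 482 (without HT lithium male 5). Females gave 0 to 15, at 0 without fluoxetine 2 or 4 or lithium 1 or 5, 2 without fluoxetine 3, 3 without lithium 3 and 15 without fluoxetine 5. Males gave 0 to 88 and moved with each library, at 0 without fluoxetine 3 or lithium 1 or 3, and at 88 without fluoxetine 1. The sex difference gave 0 to 0. WT gave 342 to 1498, at 342 to 501 without fluoxetine female 3 or 5, fluoxetine male 2 or 5, lithium female 1 or 2 or lithium male 2 or 4, and at 1267 and 1498 without lithium female 4 and fluoxetine male 1. The genotype difference gave 0 without WT lithium male 3 to 130 without WT fluoxetine male 1, and 2 to 4 without HT fluoxetine female 4 or 5, HT lithium female 4 or WT lithium male 2. Lithium against vehicle gave 25 to 84, at 25 without HT lithium male 3, 26 without HT lithium female 5 and 36 without HT vehicle male 2 or 4, and fluoxetine against vehicle gave 0 to 2.

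Among the named genes, whose signs were followed through the settings, 5 uncalled ones changed sign. Tbl1xr1 gave 0.0021 under upper-quartile rescaling, 0.0012 with a choroid plexus covariate and -0.020 to 0.010 with a library left out. Ermn and Slc5a3 gave -0.0032 and -0.0028 with the choroid plexus covariate, and Slc5a3 -0.012 (without HT lithium male 1) to 0.12 with a library left out. Sp8 gave -0.52 to 0.039 (without HT fluoxetine male 2) with a library left out, 0.081 in edgeR and 0.073 in DESeq2, and Tbx21 gave 0.32 and 0.30 in those tools. With 5 libraries per sex and arm, differences within a single sex were measured less precisely than those over both.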
